A study of Homo sapiens with 6 samples.

Results

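The ATP-binding cassette (ABC) genes are described here in Panc-1 cells, an established human pancreatic carcinoma cell line, after treatment with medium conditioned by cancer-associated fibroblasts. The members were the rows of the expression table whose symbol is ABC, a subfamily letter from A to G and a number, and 46 of 42495 gene rows matched. They comprised 12 genes of subfamily A, 9 of B, 12 of C, 4 of D, 1 of E, 3 of F and 5 of G. In 3 samples the cells had received conditioned medium (CM) of CAFS1, a fibroblast line from a patient whose tumour was sensitive to platinum, and in 3 samples CM of CAFR1, a line from a patient whose tumour was resistant, both for 72 h. The samples are called CAFS-CM and CAFR-CM, as in their labels. All medium of a group came from 1 fibroblast line, and no sample analysed here had unconditioned medium. The study calls the samples biological replicates, but a p-value here reflects only how these samples vary, since fibroblast lines and patients were not replicated within a group. In such bulk RNA, fewer cells with a transcript and less of it per cell cannot be told apart.

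ABC proteins bind and hydrolyse ATP through a conserved nucleotide-binding domain, and most couple this to moving a substrate across a membrane. Subfamily A mainly moves lipids, B holds the drug pump P-glycoprotein beside mitochondrial and lysosomal carriers, C holds the multidrug resistance-associated proteins (MRPs) and the sulfonylurea receptors, D serves peroxisomes and lysosomes, and G holds sterol exporters and the breast cancer resistance protein. Members of E and F have the ATP-binding domains without a membrane part and act on ribosomes and translation. In cancer the family is best known for drug efflux from tumour cells.

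After CAFR-CM, the members that rose were 4 of 9 tested in subfamily A and 4 of 8 in C. ABCB6 alone of 6 rose in B and ABCG2 alone of 3 in G, while 2 of 3 in F fell. Over all gene rows tested, 15.1% were higher and 11.1% lower. Each of the 4 calls in C (ABCC4, ABCC6, ABCC9 and ABCC10) was lost under at least 1 other setting. The porphyrin transporter gene ABCB6 had the largest change of the members tested, from 6.02 ± 0.458 to 18.7 ± 1.82 FPKM (mean ± SD, n = 3 per group), a ratio of 3.11. ABCG2, the gene of breast cancer resistance protein, rose from 0.980 ± 0.135 to 2.17 ± 0.0839 FPKM, and the lipid transporter genes ABCA2 and ABCA3 rose by ratios of 1.44 and 1.43. The translation genes ABCF1 and ABCF3 fell, to 0.818 and 0.822 of their level after CAFS-CM. ABCC1, the gene of MRP1 and the most abundant member, was at 199 ± 2.44 and 192 ± 6.27 FPKM and was not called. FPKM (fragments per kilobase of transcript, relative to all mapped fragments) are scaled by length, so that levels can be compared between genes.

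Of the 46 members, 33 exceeded 0.1 FPKM in at least 3 samples and were tested with limma on the log2(FPKM + 1) scale. At an adjusted p under 0.05, 10 were higher and 3 lower after CAFR-CM, 39.4% of those tested, beside 26.2% of all 23608 gene rows. By direction the background was 15.1% higher and 11.1% lower. Of the members called, 76.9% were higher (57.6% of all gene rows called). With median-of-ratios factors 7 members were higher and 6 lower, so that 53.9% of those called were higher (40.3% of all gene rows called). Of 24 members with a mean of at least 1 FPKM, 9 were higher and 3 lower, 50% of them, beside 36.7% of all gene rows at that level (19.5% higher and 17.2% lower). The CAFR-CM values of 16 members tested lay wholly above those after CAFS-CM (26.4% of all gene rows) and those of 6 wholly below (16.8%). At a mean of at least 1 FPKM these were 13 and 5 members (29.1% and 24.9% of gene rows). The median log2 fold change was 0.10 over the 33 members and 0.06 over all gene rows tested.

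By subfamily, 4 of 9 members tested were higher in A, 1 of 6 in B, 4 of 8 in C and 1 of 3 in G, and none of these 26 was lower. Of the 7 members tested in D, E and F, 3 were lower and none higher. In F 2 of 3 were lower, and the 1 member of E was not called. With median-of-ratios factors ABCB10, ABCC1 and ABCE1 were lower as well. The median log2 fold changes were 0.28 in A, 0.05 in B, 0.18 in C, -0.25 in D, -0.15 in E, -0.27 in F and 0.27 in G, and that of B was -0.02 with median-of-ratios factors. Of 18 members tested that encode full-length proteins, with both units in 1 chain, 8 were higher and none lower. These 8 include ABCC9, of a sulfonylurea receptor, which is a regulator and not a pump. Of 11 that encode single units, which pair to form a pump, 2 were higher and 1 lower, and of the 4 proteins without a membrane part 0 were higher and 2 lower. These groups were formed from textbook knowledge, and no difference between them was tested. Beside the counts by subfamily and by these groups, 15.1% of all gene rows tested were higher and 11.1% lower.

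**Figure D1:**
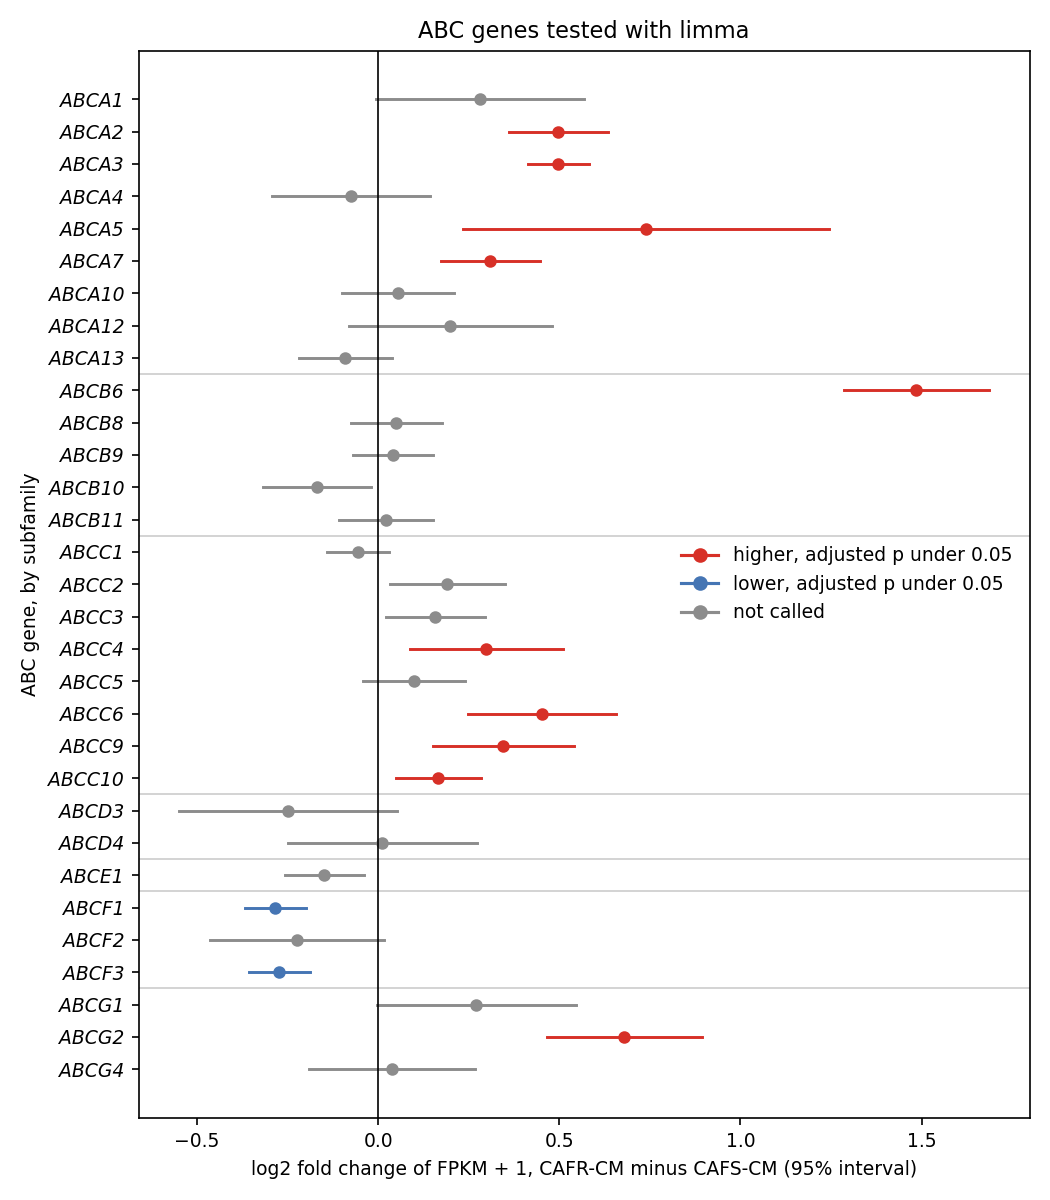
Log2 fold change of FPKM + 1 (CAFR-CM minus CAFS-CM, x axis) with its 95% interval for 31 of the 33 ABC genes tested, grouped by subfamily on the y axis, in red where higher, blue where lower and grey where not called. ABCB6 lies farthest to the right at 1.49, and the genes in blue are ABCF1 and ABCF3.

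As FPKM summed over a subfamily, A was at 49.0 to 50.8 and 69.1 to 71.9 in the samples after CAFS-CM and CAFR-CM. B was at 41.6 to 42.6 and 52.9 to 58.1, where ABCB6 gave most of the difference, and G at 2.01 to 2.40 and 3.71 to 4.02. E was at 22.6 to 24.4 and 20.5 to 21.8, and F at 89.8 to 95.3 and 75.2 to 77.1. Pairs of values stand for CAFS-CM first and CAFR-CM second. In these sums the groups did not overlap. The sum of C, set mainly by ABCC1, was at 255 to 264 and 257 to 272 and overlapped. The whole family summed to 575 to 589 and 569 to 587 FPKM, of which ABCC1 held 34.1 to 34.4% and 32.8 to 33.9%. The sums of the whole family thus overlapped between the groups.

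**Figure D2:**
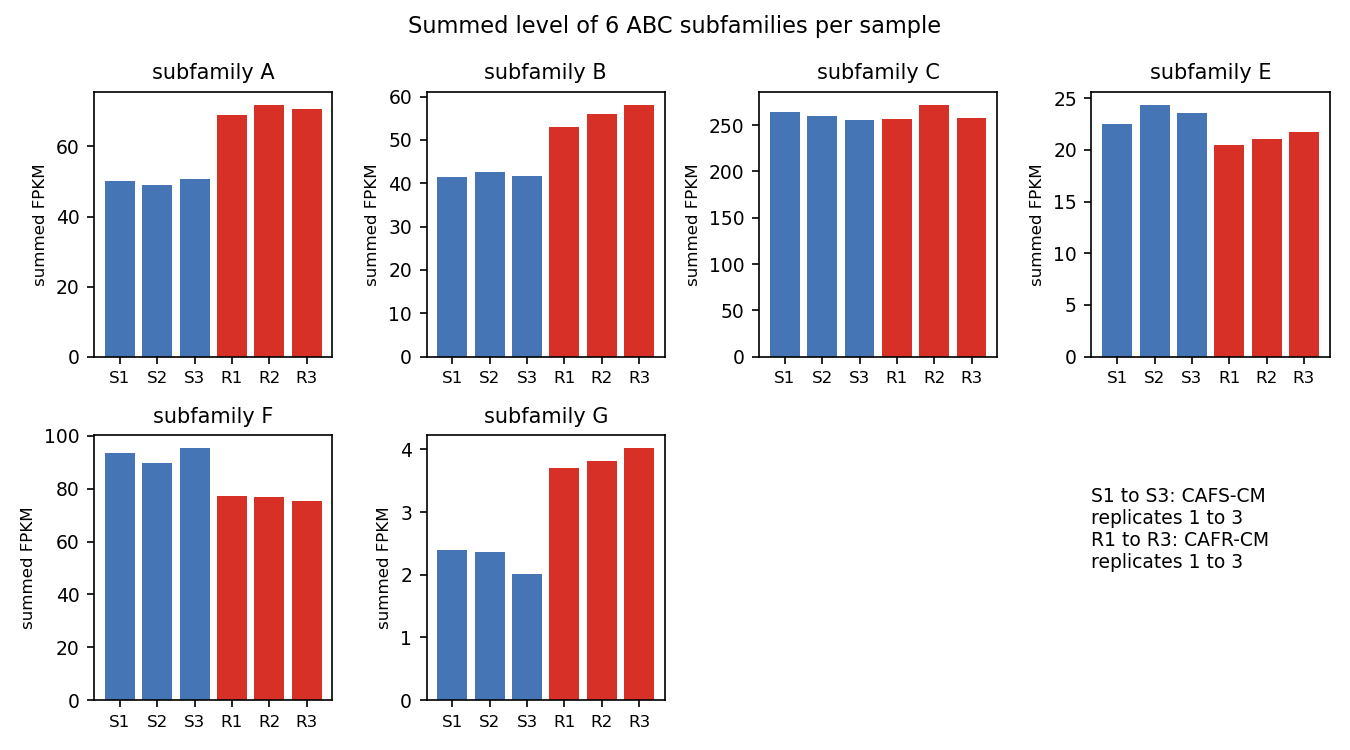
Summed FPKM of 6 ABC subfamilies (y axis, from 0) in each sample (x axis, S1 to S3 after CAFS-CM and R1 to R3 after CAFR-CM). The sums of A, B and G are higher in all 3 CAFR-CM samples, those of E and F are lower, and those of C overlap.

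ABCB6 encodes a transporter of porphyrins, the precursors of heme. It was at 6.08, 6.44 and 5.53 FPKM after CAFS-CM and at 16.90, 18.62 and 20.5 FPKM after CAFR-CM. Every CAFR-CM sample was more than 2 times as high as every CAFS-CM sample. For ABCB6 limma gave a log2 difference of 1.49 with an SE of 0.08 and an adjusted p of 8.73e-05. In GENCODE v44 (GRCh38) the gene spans chr2:219209772-219218994 on the minus strand, and 54.6% of its exonic bases are shared with a readthrough model that begins in the neighbouring gene ATG9A. ATG9A, an autophagy gene named after its values were seen, was at 68.0 ± 1.45 and 67.9 ± 2.50 FPKM and was not called. Without each of the 6 samples in turn ABCB6 was still called by limma, with log2 differences from 1.42 to 1.55.

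Other carriers of subfamily B serve organelles. ABCB8, of the inner mitochondrial membrane, was at 8.03, 8.06 and 8.16 FPKM after CAFS-CM and at 8.19, 8.73 and 8.29 FPKM after CAFR-CM. ABCB10, which takes part in heme synthesis in the same membrane, was at 9.16, 8.1 and 8.63 FPKM and at 7.42, 7.79 and 7.47 FPKM. ABCB9, a lysosomal peptide carrier, was at 10.24, 10.13 and 9.97 FPKM and at 10.43, 10.62 and 10.25 FPKM. For these 3 genes the groups did not overlap, by small margins, and none was called (limma adjusted p of 0.540, 0.0933 and 0.567). With median-of-ratios factors ABCB10 was lower, with an adjusted p of 0.0225 from limma, and the differences of ABCB8 and ABCB9 were below 0. Exons of ABCB9 overlap those of OGFOD2 and ARL6IP4 on the opposite strand, and the sources used here do not give the strand setting of the counting.

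Genes of heme and iron-sulfur cluster synthesis, pathways linked to ABCB6 and ABCB10, went both ways. Of 18 listed and tested, 3 were higher and 4 lower, with a median log2 fold change of -0.07. These were 16.7% and 22.2%, beside 15.1% and 11.1% of all gene rows tested. At a mean of at least 1 FPKM, the shares of gene rows were 19.5% and 17.2%. SLC25A37, the mitochondrial iron importer, rose from 26.3 ± 0.976 to 35.3 ± 1.23 FPKM, and FECH, the last enzyme of heme synthesis, from 13.6 ± 0.696 to 16.8 ± 1.02 FPKM. GLRX5, of iron-sulfur cluster assembly, fell from 31.9 ± 1.98 to 25.7 ± 1.17 FPKM. ALAS1, the first enzyme of heme synthesis, was at 71.6 ± 2.73 and 71.8 ± 3.32 FPKM and was not called. TAP1 and TAP2, which move peptides for antigen presentation, are subfamily B proteins without an ABC symbol. TAP1 rose from 19.2 ± 0.472 to 27.8 ± 1.80 FPKM, and limma gave a log2 difference of 0.51 with an SE of 0.05 and an adjusted p of 9.45e-04. TAP2 was at 22.0 ± 0.331 and 23.7 ± 1.34 FPKM and was not called (limma adjusted p of 0.173).

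In subfamily A, ABCA3, which loads phospholipids into the lamellar bodies of lung cells, was the most abundant member. It was at 22.1, 22.0 and 22.3 FPKM after CAFS-CM and at 30.9, 32.1 and 32.0 FPKM after CAFR-CM. For ABCA3 limma gave a log2 difference of 0.50 with an SE of 0.04 and an adjusted p of 1.99e-04. ABCA2, a lipid transporter of late endosomes and lysosomes, was at 13.27, 11.92 and 13.15 FPKM and at 17.77, 19.22 and 18.34 FPKM. Here limma gave a log2 difference of 0.50 with an SE of 0.06 and an adjusted p of 0.00127. ABCA7, a phospholipid exporter, was at 8.51, 8.3 and 8.07 FPKM and at 10.82, 10.85 and 9.91 FPKM, and limma gave a log2 difference of 0.31 with an SE of 0.06 and an adjusted p of 0.00863. For all 3 genes the lowest CAFR-CM sample lay above the highest CAFS-CM sample.

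ABCA1, the exporter of cholesterol to apolipoprotein A-I, was at 2.94, 3.65 and 3.3 FPKM after CAFS-CM and at 4.67, 4.59 and 3.46 FPKM after CAFR-CM. CAFR-CM replicate 3 lay among the CAFS-CM samples, and the gene was not called (limma adjusted p of 0.138). Without that sample the limma adjusted p was 0.0410, and without each of the others it was 0.151 to 0.321. ABCA12, known from lipid secretion in the skin, was at 0.74, 0.67 and 0.87 FPKM and at 1.26, 1.09 and 0.74 FPKM, with overlap, and was not called. ABCA5, a lysosomal transporter, was at 1.35, 1.43 and 2.21 FPKM and at 2.61, 2.99 and 4.92 FPKM. Replicate 3 was the highest of each group for ABCA5. For this gene limma gave a log2 difference of 0.74 with an SE of 0.21 and an adjusted p of 0.0430. The call was lost without CAFS-CM replicate 1 or 2 or CAFR-CM replicate 2 or 3 (limma adjusted p from 0.0656 to 0.126).

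ABCA5 forms a cluster on chromosome 17 with ABCA6, ABCA8, ABCA9 and ABCA10, and it was the only one of the 5 with a mean of at least 1 FPKM. ABCA6 was at 0.01, 0.04 and 0 FPKM after CAFS-CM and at 0.28, 0.08 and 0.27 FPKM after CAFR-CM. These values did not overlap, but only 2 of them exceeded 0.1 FPKM, so the gene was not tested. ABCA10 was at 0.22, 0.16 and 0.09 FPKM and at 0.2, 0.2 and 0.2 FPKM and was not called, and no value of ABCA8 or ABCA9 exceeded 0.04 FPKM.

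The exporters of cholesterol in subfamily G are ABCG1 and ABCG4, beside the pair ABCG5 and ABCG8 of liver and gut. ABCG1 was at 0.577 ± 0.108 and 0.910 ± 0.251 FPKM, and ABCG4 at 0.693 ± 0.0208 and 0.743 ± 0.180 FPKM. Neither was called, and no value of ABCG5 or ABCG8 exceeded 0.04 FPKM. Of 18 genes listed for the control of sterol efflux and uptake, 17 were tested. Of these, 5 were higher and 6 lower (median log2 fold change -0.06). These were 29.4% and 35.3%, beside 15.1% and 11.1% of all gene rows tested (19.5% and 17.2% at a mean of at least 1 FPKM). SCARB1, a receptor of high-density lipoprotein, rose from 67.3 ± 4.55 to 127 ± 3.02 FPKM, and APOE, an acceptor of exported cholesterol, from 84.5 ± 9.22 to 140 ± 5.27 FPKM. NR1H2 and NR1H3 encode the liver X receptors, which switch on ABCA1 and ABCG1. NR1H2 was lower, at 31.5 ± 1.45 and 26.9 ± 0.781 FPKM, and NR1H3, at 4.63 ± 0.449 and 4.42 ± 0.386 FPKM, was not called.

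ABCG2 encodes breast cancer resistance protein, which pumps drugs, urate and porphyrins out of cells. It was at 0.99, 1.11 and 0.84 FPKM after CAFS-CM and at 2.22, 2.07 and 2.21 FPKM after CAFR-CM. The groups did not overlap, and the ratio of means was 2.21. For ABCG2 limma gave a log2 difference of 0.68 with an SE of 0.09 and an adjusted p of 0.00226. The log2(FPKM + 1) scale understates changes at such low levels, and on the log2(FPKM + 0.1) scale the difference was 1.08. ABCG2 was called by limma without each of the 6 samples in turn. ABCB1, the gene of P-glycoprotein, lay between 0.04 and 0.08 FPKM in the 6 samples and its relative ABCB5 between 0.03 and 0.11 FPKM, and neither could be tested.

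In subfamily C, ABCC1 was at 202, 198 and 198 FPKM after CAFS-CM and at 188, 199 and 188 FPKM after CAFR-CM. MRP1 exports glutathione conjugates and several drugs. The groups overlapped, and the log2 difference of -0.06 had a 95% interval from -0.14 to 0.03 (limma adjusted p of 0.307). It was -0.16 with median-of-ratios factors (adjusted p of 0.0184) and 0.06 with cyclic loess scaling (adjusted p of 0.262), both from limma. ABCC3, of MRP3, the basolateral exporter of conjugates, was at 18.58, 16.85 and 16.29 FPKM and at 19.34, 19.85 and 18.76 FPKM, without overlap. It was not called (limma adjusted p of 0.0905). Without CAFS-CM replicate 1 the limma adjusted p was 0.0409, and without each of the others it was 0.113 to 0.243. ABCC5, of the cyclic nucleotide exporter MRP5, was at 10.93, 11.18 and 12.04 FPKM and at 12.21, 12.90 and 11.68 FPKM, with overlap, and was not called.

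ABCC4, ABCC9 and ABCC10 were higher, but the calls did not hold in many of the alternatives. ABCC4, of MRP4, which exports cyclic nucleotides and prostaglandins, was at 18.98, 20.3 and 15.96 FPKM after CAFS-CM and at 21.5, 23.8 and 23.1 FPKM after CAFR-CM. ABCC10, of the drug exporter MRP7, was at 11.03, 11.01 and 10.82 FPKM and at 11.90, 12.90 and 12.45 FPKM. ABCC9, which encodes the sulfonylurea receptor SUR2, was at 1.61, 1.5 and 1.58 FPKM and at 2.4, 2.22 and 2.15 FPKM. In that order the log2 differences were 0.30, 0.17 and 0.34, with limma adjusted p-values of 0.0479, 0.0477 and 0.0224. Every CAFR-CM value lay above the CAFS-CM values. ABCC4 was called only without CAFS-CM replicate 2 when 1 sample was left out, ABCC10 only without CAFR-CM replicate 1, and ABCC9 only without CAFR-CM replicate 2 or 3. The adjusted p reached 0.119 for ABCC4, 0.139 for ABCC10 and 0.0788 for ABCC9 when samples were left out (limma). SUR2 regulates a potassium channel gated by ATP. Of its pore genes, KCNJ11 was at 0.587 ± 0.0929 and 0.630 ± 0.120 FPKM and KCNJ8 exceeded 0 in 1 sample, at 0.03 FPKM.

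ABCC6, of MRP6, which releases ATP from liver cells, was at 0.38, 0.5 and 0.47 FPKM after CAFS-CM and at 1.11, 1 and 0.85 FPKM after CAFR-CM. For ABCC6 limma gave a log2 difference of 0.45 with an SE of 0.09 and an adjusted p of 0.00948. It shares near-identical sequence with the pseudogenes ABCC6P1 and ABCC6P2, which were at 0.473 ± 0.188 and 0.620 ± 0.340 FPKM and at 1.25 ± 0.615 and 1.27 ± 0.585 FPKM. The 3 rows summed to 1.99, 1.5 and 3.02 FPKM and to 2.54, 3.58 and 2.5 FPKM. The sums overlapped, and the limma adjusted p of the summed row, an alternative chosen after seeing the data, was 0.302. The level of ABCC6 is therefore uncertain.

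Of 20 genes listed for the response to drugs and their conjugation, which supplies substrates of MRPs, 15 were tested. Of these, 8 were higher and 1 lower (median log2 fold change 0.16). These were 53.3% and 6.67%, beside 15.1% and 11.1% of all gene rows tested (19.5% and 17.2% at a mean of at least 1 FPKM). CYP1B1, a monooxygenase gene, rose from 76.9 ± 2.78 to 131 ± 1.24 FPKM. GCLC, the catalytic subunit for glutathione synthesis, rose from 9.55 ± 0.220 to 16.0 ± 0.466 FPKM, and EPHX1, an epoxide hydrolase gene, from 28.9 ± 0.681 to 38.2 ± 1.64 FPKM. NR1I2, the pregnane X receptor that switches on ABCB1, did not exceed 0.02 FPKM in any sample. Of 22 genes listed as drug carriers outside the ABC family, mostly for uptake, 11 were tested. Of the 11 tested, SLCO1B3 and SLCO4A1 were higher and SLCO3A1 was lower. These were 18.2% and 9.09%, beside 15.1% and 11.1% of all gene rows tested. SLCO4A1 rose from 90.7 ± 3.21 to 149 ± 5.46 FPKM, SLCO1B3 from 2.59 ± 0.275 to 5.51 ± 0.486 FPKM, and SLCO3A1 fell from 23.5 ± 0.705 to 18.9 ± 0.329 FPKM.

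In subfamily D, ABCD3, a peroxisomal importer known as PMP70, was at 15.23, 13.06 and 15.74 FPKM after CAFS-CM and at 11.71, 10.39 and 14.72 FPKM after CAFR-CM, with overlap. It was not called (limma adjusted p of 0.199). Without CAFR-CM replicate 3 the limma adjusted p was 0.0386, and without each of the others it was 0.160 to 0.425. ABCD4, which takes part in the release of cobalamin from lysosomes, was at 5.94, 4.79 and 6.49 FPKM and at 5.46, 5.55 and 6.28 FPKM, also with overlap. No value of ABCD2 exceeded 0.03 FPKM. Of 13 genes listed for peroxisomal fatty acid oxidation, all tested, 3 were higher and none lower (median log2 fold change 0.12). The share higher was 23.1%, beside 15.1% higher and 11.1% lower of all gene rows tested. Of gene rows with a mean of at least 1 FPKM, 19.5% were higher and 17.2% lower. SCP2, whose products include a peroxisomal thiolase, had the smallest adjusted p and rose from 16.1 ± 0.223 to 24.7 ± 1.39 FPKM. Its row does not separate these products. The oxidase gene ACOX3 rose from 6.01 ± 0.110 to 7.42 ± 0.181 FPKM, and HSD17B4, of the next step, from 20.4 ± 1.24 to 24.4 ± 1.39 FPKM.

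The members of E and F were below their CAFS-CM level on average. ABCE1, which splits ribosomes after termination, was at 22.6, 24.4 and 23.6 FPKM after CAFS-CM and at 20.5, 21.0 and 21.8 FPKM after CAFR-CM. Its groups did not overlap, and it missed the threshold with a log2 difference of -0.15 and a limma adjusted p of 0.0534. ABCF1, which binds the initiation factor eIF2, was at 50.4, 50.5 and 52.1 FPKM and at 42.0, 42.5 and 40.6 FPKM. For ABCF1 limma gave a log2 difference of -0.28 with an SE of 0.04 and an adjusted p of 0.00168. ABCF3 was at 27.5, 27.4 and 27.9 FPKM and at 23.1, 22.2 and 22.8 FPKM, and limma gave a log2 difference of -0.27 with an SE of 0.04 and an adjusted p of 0.00217. For ABCF1 and ABCF3 the gap between the groups was wider than the range within either.

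ABCF2 was at 15.71, 11.85 and 15.29 FPKM after CAFS-CM and at 11.97, 12.13 and 11.87 FPKM after CAFR-CM, and was not called (log2 difference -0.22, limma adjusted p of 0.153). CAFS-CM replicate 2 was lower than the other samples of its group, and without it the adjusted p from limma was 0.0101. Of 15 alternatives, the summed row below apart, only this gave a call. The row ABCF2-H2BE1 is a readthrough transcript, and the readthrough model of this locus in GENCODE v44 shares 37.1% of the exonic bases of ABCF2. It was at 13.05, 16.41 and 13.06 FPKM and at 13.25, 9.98 and 10.51 FPKM, with its highest value in CAFS-CM replicate 2. The ABCF2 and readthrough rows summed to 28.8, 28.3 and 28.4 FPKM after CAFS-CM and to 25.2, 22.1 and 22.4 FPKM after CAFR-CM. The sums did not overlap. For the summed row, an alternative chosen after seeing the data, limma gave a log2 difference of -0.28 with an SE of 0.06 and an adjusted p of 0.0108. Of 13 listed genes of ribosome recycling and initiation, all tested, 2 were higher and 4 lower. These were 15.4% and 30.8%, beside 15.1% and 11.1% of all gene rows tested (19.5% and 17.2% at a mean of at least 1 FPKM). The 3 subunit genes of eIF2 went both ways. EIF2S2 rose from 49.6 ± 1.04 to 74.5 ± 1.01 FPKM and EIF2S3 from 70.8 ± 2.13 to 86.3 ± 4.80 FPKM, while EIF2S1 fell from 17.4 ± 0.585 to 14.9 ± 0.765 FPKM. EIF3J, of the initiation factor eIF3, fell from 33.9 ± 0.423 to 29.6 ± 1.21 FPKM.

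**Figure D3:**
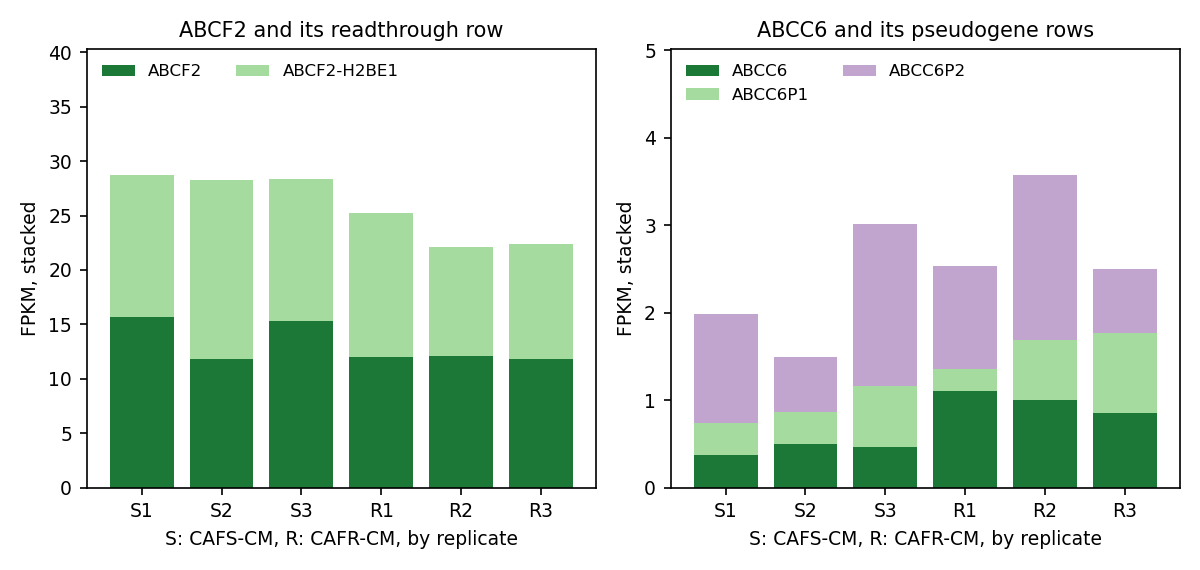
Stacked FPKM (y axis, from 0) per sample (x axis, S1 to S3 after CAFS-CM and R1 to R3 after CAFR-CM) of ABCF2 with its readthrough row and of ABCC6 with its pseudogene rows. The stack of ABCF2 is lower in all 3 CAFR-CM samples, at most 25.2 FPKM, and the stacks of ABCC6 overlap between the groups.

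**Figure D4:**
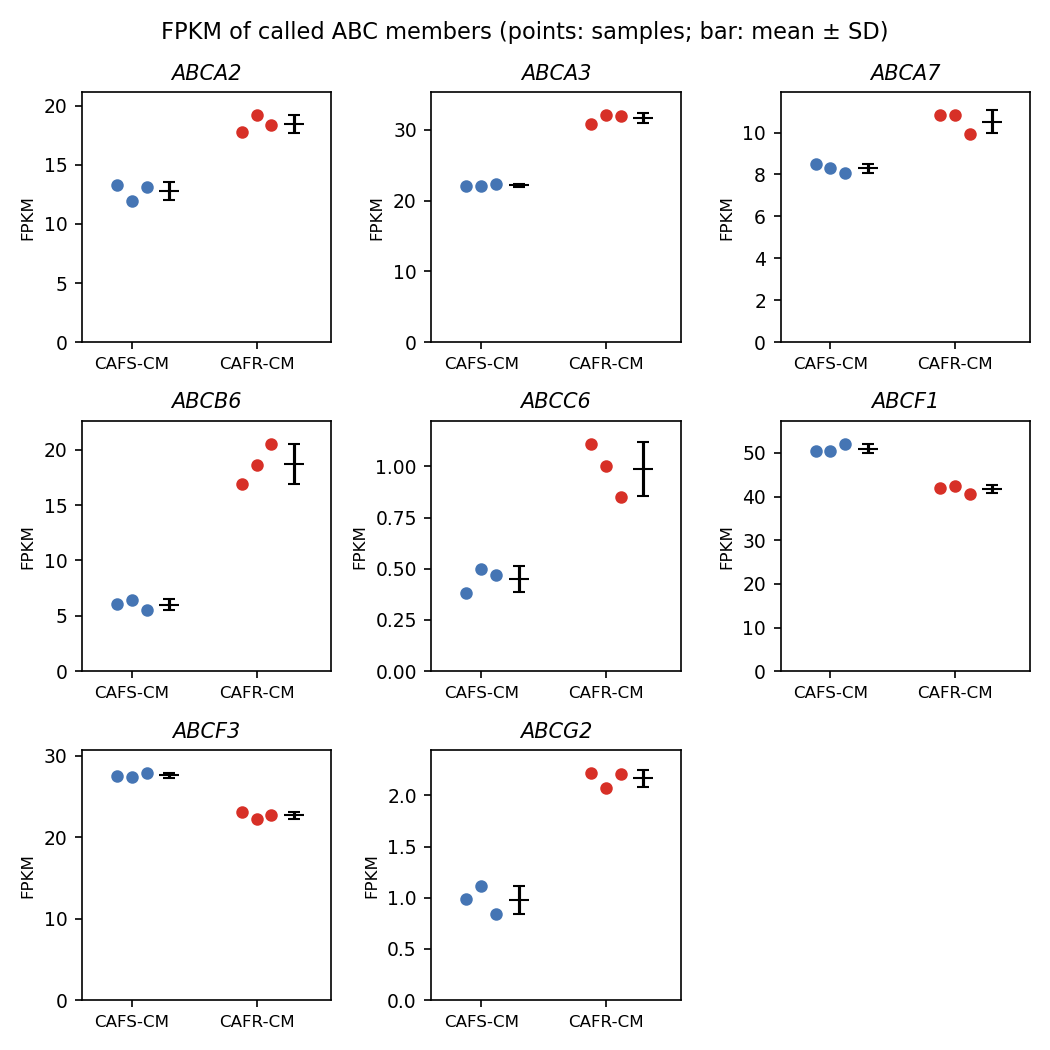
FPKM (y axis, from 0) of 8 called ABC members in each sample (points), with the mean ± SD of the 3 samples of a group beside them. The CAFS-CM and CAFR-CM samples do not overlap in any of the 8 panels, and for ABCB6 the gap runs from 6.44 to 16.90 FPKM.

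**Figure D5:**
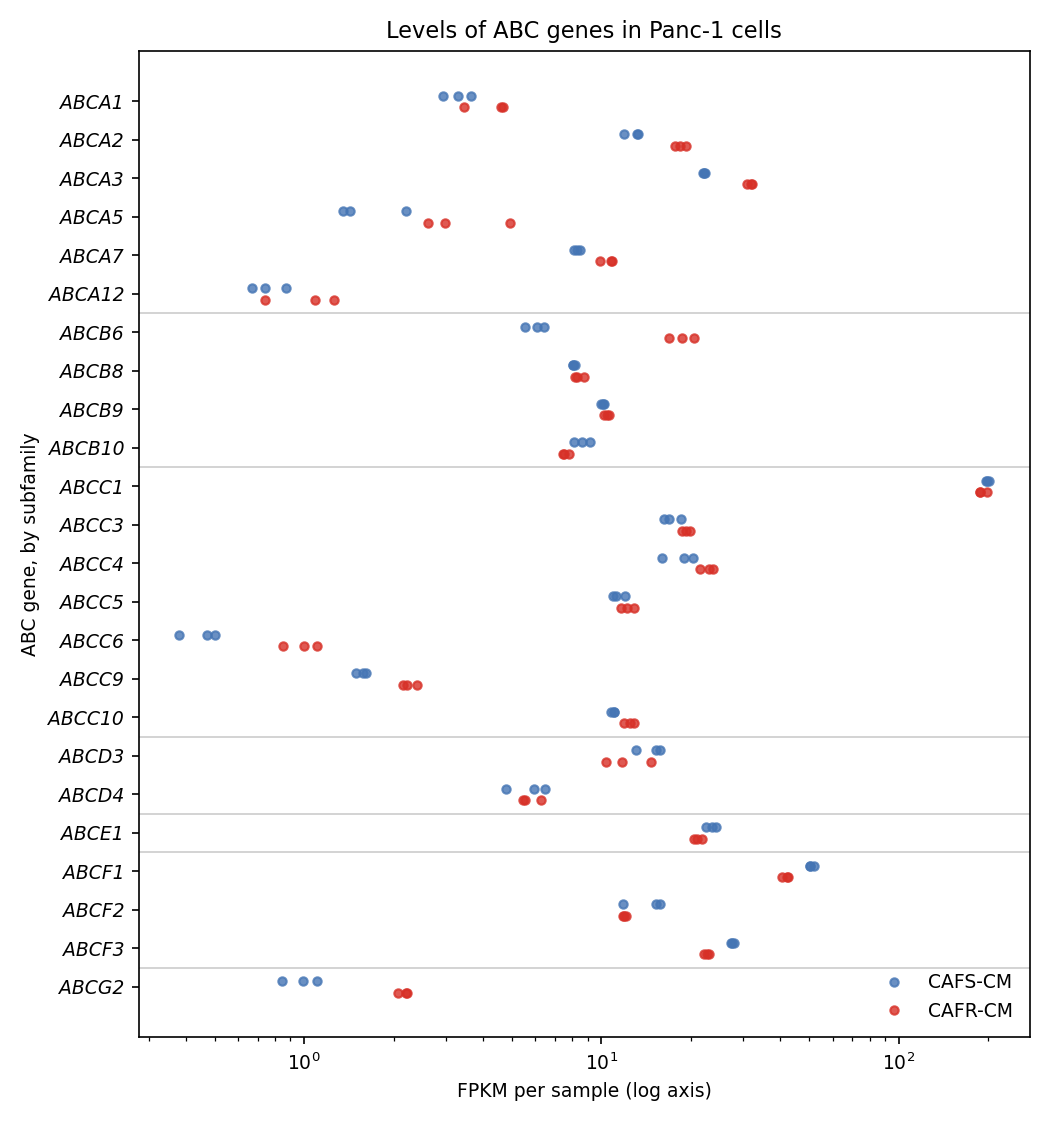
FPKM per sample (x axis, log scale) of 24 of the 26 ABC genes that were called or had a mean of at least 1 FPKM in a group, by subfamily (y axis), in blue after CAFS-CM and in red after CAFR-CM. ABCC1 lies above every other member in all 6 samples, and ABCC6 lies lowest after CAFS-CM.

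The promoters of 4 called members, chosen after their values were seen, are shown so that the windows of genes that rose and genes that fell can be compared. Each is the 250 bases before the RefSeq start on GRCh38.p14, 5′ to 3′ on the strand of the gene. ABCB6 lies at chr2:219218959-219219208 and ABCA3 at chr16:2340729-2340978, both on the minus strand, and ABCF1 at chr6:30571192-30571441 and ABCF3 at chr3:184185949-184186198, both on the plus strand. Capitals mark matches, on either strand, to the core of the hypoxia response element, ACGTG, and to the antioxidant response element, TGACNNNGC.
ABCB6: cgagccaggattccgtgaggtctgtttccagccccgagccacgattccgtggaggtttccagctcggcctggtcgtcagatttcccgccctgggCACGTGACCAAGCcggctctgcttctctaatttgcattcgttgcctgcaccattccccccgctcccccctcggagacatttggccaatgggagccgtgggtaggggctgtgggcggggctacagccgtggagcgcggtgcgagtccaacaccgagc
ABCA3: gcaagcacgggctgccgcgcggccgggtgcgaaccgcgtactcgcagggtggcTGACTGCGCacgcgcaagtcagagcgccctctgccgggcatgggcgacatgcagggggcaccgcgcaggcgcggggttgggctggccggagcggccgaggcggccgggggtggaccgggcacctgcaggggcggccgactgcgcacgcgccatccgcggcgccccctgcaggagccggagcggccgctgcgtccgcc
ABCF1: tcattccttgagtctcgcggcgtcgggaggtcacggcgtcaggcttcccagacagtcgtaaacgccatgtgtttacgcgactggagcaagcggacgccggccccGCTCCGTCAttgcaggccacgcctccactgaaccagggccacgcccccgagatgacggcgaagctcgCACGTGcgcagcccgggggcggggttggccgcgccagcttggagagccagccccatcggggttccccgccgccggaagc
ABCF3: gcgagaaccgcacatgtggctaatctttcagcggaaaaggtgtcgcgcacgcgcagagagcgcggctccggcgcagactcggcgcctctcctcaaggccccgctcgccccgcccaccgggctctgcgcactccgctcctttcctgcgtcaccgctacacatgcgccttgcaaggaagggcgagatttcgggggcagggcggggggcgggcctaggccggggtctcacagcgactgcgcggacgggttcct
ABCB6 and ABCF1 hold the core within the palindrome CACGTG, which is read on both strands, and in ABCB6 it overlaps the match to the antioxidant element. ABCF3 holds neither pattern. Thus a gene that rose and a gene that fell both hold each of the patterns.

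RefSeq windows were at hand for 35 of the 46 members, 10 of those higher and 2 of those lower. ACGTG was in a window of 12 of the 35 members, beside 21.7% of 27305 genes, and of 4 of the 10 higher and 1 of the 2 lower. TGACNNNGC was in a window of 9 of the 35, beside 13.2% of genes, and of 5 of the 10 higher and 1 of the 2 lower. A form of the NF-κB site was in none of the 35 (2.12% of genes). TCACNCCAC, a form of the sterol regulatory element, was in none (1.09%), and TTGCATCA, a form of the ATF4 site, in 1, ABCA13 (0.967%). Matches of letters are a description of these windows only.

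The 20 members without a mean of at least 1 FPKM or a call had group means of at most 0.91 FPKM, and 13 of them were not tested. The 7 tested were ABCA4, ABCA10, ABCA13, ABCB11, ABCC2, ABCG1 and ABCG4, with log2 differences from -0.09 to 0.27. ABCC2, of the apical exporter MRP2, had the lowest limma adjusted p of these, 0.0799, and was at 0.387 ± 0.0153 and 0.583 ± 0.0416 FPKM, without overlap. ABCA13 passed the filter on low values through the CAFS-CM samples alone. ABCC13, a pseudogene, was listed at 0 in all samples. Of 4 ABC pseudogenes under other symbols, all tested, ABCA11P was higher, at 6.36 ± 0.957 and 8.63 ± 0.946 FPKM. CFTR, a subfamily C gene without an ABC symbol, exceeded 0 in 1 sample, at 0.01 FPKM.

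All gene rows summed to 660604 to 691568 FPKM per sample after CAFS-CM and to 666560 to 701406 FPKM after CAFR-CM. FPKM hold no counts, so the depth is unknown and no counting error can be given. Of 8 epithelial markers, 3 were higher and 2 lower. Beside the marker counts given here, 15.1% of all gene rows tested were higher and 11.1% lower. KRT8 was at 3587 ± 166 and 3080 ± 31.6 FPKM and was not called, and KRT18 fell from 2401 ± 44.1 to 1943 ± 86.7 FPKM. EPCAM rose from 1.35 ± 0.577 to 2.91 ± 0.290 FPKM. Of the 3 markers that were higher, EPCAM had the highest limma adjusted p, 0.0260, and the others are not reported by name. Of 12 fibroblast markers, 5 were tested, and COL1A1 and FN1 were higher. That list summed to 45.6 to 51.8 and 61.7 to 68.2 FPKM. COL1A1 was at 20.4 ± 0.848 and 29.0 ± 1.16 FPKM, FN1 at 3.74 ± 0.150 and 7.37 ± 0.815 FPKM and COL3A1, not called, at 21.4 ± 1.44 and 24.6 ± 2.88 FPKM. THY1 was at 2.74 ± 0.644 and 2.51 ± 0.436 FPKM and ACTA2 at 0.723 ± 0.321 and 0.910 ± 0.0964 FPKM, neither of them called. Of the 7 not tested, PDGFRB was at 0.117 ± 0.133 and 0.300 ± 0.382 FPKM, and PDGFRA, DCN, LUM, COL1A2, FAP and PDPN were at 0 to 0.107 FPKM on average. FAP and PDPN were at 0 in all samples, while the low values of PDGFRA and LUM lay above those after CAFS-CM in all 3 CAFR-CM samples. Of 6 leukocyte markers 3 were tested and none called, and PTPRC did not exceed 0.01 FPKM. The 3 tested were CD68 at 32.6 ± 1.71 and 37.3 ± 2.64 FPKM, CD14 at 2.00 ± 0.186 and 1.80 ± 0.589 FPKM, and ITGAM. ITGAM was at 0.0533 ± 0.0379 and 0.210 ± 0.0721 FPKM, without overlap. Of 5 endothelial markers 2 were tested and KDR was higher, at 1.41 ± 0.0458 and 2.13 ± 0.230 FPKM, while PECAM1 did not exceed 0.07 FPKM. The part of these markers in the results above was not tested.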

How the data were processed

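RNA of 6 Panc-1 samples, 3 per group, was sequenced after depletion of ribosomal RNA. By the study's methods and the submitters' processing notes, the authors used SOAPnuke to filter reads and HISAT2 (version 2.0.4) for mapping to the GRCh38.p13 genome, and deposited gene levels from RSEM (version 1.2.12) as FPKM with 2 decimals. Bowtie2 (version 2.2.5) is also named, with annotation and strand setting not given in the sources used here. As FPKM are relative to the library total, abundant RNAs can shift all others, and RSEM divides reads between rows that share sequence. The authors tested counts with DESeq2, and counts were not used here.

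Of 97767 rows, 55272 are circular RNAs with no value. Of the other 42495 gene rows, those above 0.1 FPKM in 3 or more samples (23608) entered a limma fit (version 3.58.1, in R version 4.3.3) of log2(FPKM + 1) with a mean-variance trend, and p-values were adjusted by Benjamini and Hochberg's method over all of them. Lists are described by counts and medians. The fit was tested on simulated data, with 100 genes raised 2-fold and 100 raised 4-fold, all of at least 1 FPKM. All were recovered, and 5 of 205 calls were false. The simulated noise had 1 spread per expression level, as the trend of the fit assumes. Spreads that differ between genes of the same level were not simulated, and far fewer genes were changed than were called in the data. Smaller changes, such as those of most called members, and genes below that level were not simulated.

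Values in every sample are given for members called or with a mean of at least 1 FPKM in a group, and of each other list up to 3 called genes with the smallest adjusted p and direct partners or near-identical copies are named. ALAS1, NR1H3, NR1I2, TAP2, CFTR and low members and markers were named for their role. Some genes, 2 members among them, are counted but not reported by name or value. The members and lists were chosen with earlier results of these data known, and the promoter motifs after the values were seen. Gene positions are from GENCODE v44 and promoters from RefSeq (GRCh38.p14), of which the 50 bases after the start were left out. All 46 members matched RefSeq by Entrez identifier. Alternatives were the pseudocount, the filter, the scaling, the trend, sample weights, a replicate block, leaving out each sample, other thresholds and, chosen after seeing the data, 2 summed rows.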

Additional observations from a re-analysis of the deposited data

How the results depend on the processing

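With no filter on low values 6 of 45 members were higher and 3 lower, beside 2815 and 2236 of 37870 gene rows. At an adjusted p under 0.01, 6 of 33 members were higher and 3 lower, beside 1751 and 1431 of 23608 gene rows. With an absolute log2 fold change above 1 only ABCB6 was called (1 higher, 0 lower), beside 264 and 14 gene rows. With median-of-ratios factors 6 of 34 members were lower, beside 3979 of 23818 gene rows. Without each sample in turn, 7 to 8 of 32 to 33 members were higher and 3 to 4 lower. Of 22677 to 23077 gene rows, 2330 to 3328 were higher (2330 without CAFS-CM replicate 2) and 1799 to 2405 lower. The median log2 fold change of the members was 0.17 on the log2(FPKM + 0.1) scale, 0.0409 with no filter, 0.0411 with median-of-ratios factors and 0.06 to 0.13 without each sample in turn. In the same order, the median over all gene rows was 0.10, 0.019, 0.011 and 0.054 to 0.066. The median-of-ratios factors were 0.963 to 0.981 in CAFS-CM samples and 1.02 to 1.05 in CAFR-CM samples. Division by them lowers the CAFR-CM values relative to the CAFS-CM values. Why the factors differed between the groups, and the cause of the other moves, was not tested. With median-of-ratios factors the log2 fold changes of ABCB8, ABCB9 and ABCD4, none of them called, were -0.0396, -0.0502 and -0.0738. That of ABCC1 was 0.0594 with cyclic loess. That of ABCD4 was -0.0749 with cyclic loess, -0.00781 with equal FPKM totals and between -0.0943 and 0.0914 without each sample in turn.

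Of the 13 members called, 9 (ABCA2, ABCA3, ABCA7, ABCB6, ABCC6, ABCF1, ABCF3 and ABCG2 among them) were called under each of up to 15 alternatives that gave them a value, the summed row of ABCC6 apart, and none of the 13 changed sign. ABCA5, ABCC4, ABCC9 and ABCC10 lost the call under 7 to 11 of them. ABCC6 could not be tested at a mean of at least 1 FPKM. Of the 13 named members not called, 7 were called under at least 1 alternative. ABCE1 was called under 2 of 15, and ABCA1, ABCB10, ABCC1, ABCC3, ABCD3 and ABCF2 under 1 each.

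With the replicate number as a block, 7 of 33 members were higher and 3 lower, and 2891 and 2340 of 23608 gene rows. The deviations of samples with the same number had correlations of 0.0198, -0.0285 and 0.0621, and not every sample correlated best with its own number, so that the number was not taken as a pairing. The precision of members below 1 FPKM is limited by values given to 2 decimals and by a depth that is not known.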
